A study of Mus musculus with 6 samples.

Results

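The Dlk1-Dio3 miRNAs are encoded in an imprinted region of mouse chromosome 12, and 58 of the 750 miRNA assays of a TaqMan low-density array, 44 on its first card and 14 on its second, measured them in monocytes. The members were the mouse assays, without those marked # for the opposite strand in older naming, whose miRNA number is among 42 numbers of this locus. Of these numbers, 41 had an assay, and miR-341 had none. The samples were Ly6Chigh (classical) and Ly6Clow (non-classical) monocytes, freshly isolated from 3 DBA/1 mice that were handled separately. Each mouse gave 1 sample of each subset, so that 6 samples were measured, 3 per subset. DBA/1 is an inbred strain, no transgene or treatment is named in the labels, and the age and sex of the mice and the gates that separated the subsets are not given in the sources used here. Every well reports a Ct, the number of PCR cycles its fluorescence needs to pass a set level, and each further cycle stands for 1 log2 unit less of the miRNA. A Ct of 40 is listed for undetected reactions, and a Ct under 35 is called a signal here. The cards are called A and B in the order in which their 384 wells are listed, and for reverse transcription and preamplification the labels give rodent pool A alone. The primer pool behind card B is not given in the sources used here.

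In this locus, the protein-coding genes Dlk1, Rtl1 and Dio3 are expressed from the paternal chromosome, whereas the long noncoding RNAs Meg3, Rian and Mirg and the miRNAs embedded among them come from the maternal one. The miRNAs lie in a group around the antisense transcript of Rtl1, which includes miR-127, miR-136, miR-431, miR-433 and miR-434, and in a long run from miR-379 to miR-410. They are best known from embryo, placenta, brain and mesenchymal cells. A miRNA pairs with its target mRNAs mainly through its seed, bases 2 to 8 from the 5′ end, so members with the same seed can share targets.

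All 58 assays matched a RefSeq gene by name. These were 43 genes with 82 mature sequences in the RefSeq annotation of GRCm38.p6. Only 20 of the assays carry a name that gives the arm as RefSeq does, and for the other 38 both arms of the hairpin are candidates. The 6 assays with a signal in at least 3 samples were those of miR-541, miR-370, miR-433-5p, miR-323-3p, miR-411 and miR-494, and their mature miRNAs are shown because the comparison of the subsets rests on them. Capitals mark the seed. Both assays whose names hold an arm have 1 sequence each:
mmu-miR-433-5p: uACGGUGAgccugucauuauuc
mmu-miR-323-3p: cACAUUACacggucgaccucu
The other 4 assays name no arm, and both are given:
mmu-miR-541-5p: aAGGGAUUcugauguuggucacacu
mmu-miR-541-3p: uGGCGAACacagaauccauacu
mmu-miR-370-5p: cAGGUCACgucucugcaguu
mmu-miR-370-3p: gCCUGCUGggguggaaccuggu
mmu-miR-411-5p: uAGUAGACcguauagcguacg
mmu-miR-411-3p: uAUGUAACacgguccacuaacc
mmu-miR-494-5p: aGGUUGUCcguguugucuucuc
mmu-miR-494-3p: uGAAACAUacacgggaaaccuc
The 82 mature sequences held 79 distinct seeds. Among the sequences above, 2 shared a seed with another member of the locus, and these partners are shown for comparison. The assays named miR-379 and miR-410 gave no signal in any sample, but neither their names nor those of miR-411 and miR-494 say which arm was measured:
mmu-miR-379-3p: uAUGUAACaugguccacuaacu
mmu-miR-410-5p: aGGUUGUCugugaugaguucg
The first has the seed of miR-411-3p and the second that of miR-494-5p. The third shared seed, UGGAUAU, belonged to miR-376b-5p and miR-376c-5p.

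Values of 1 card go against the labels. On card A, the Ly6Chigh sample of mouse 1 gave no signal for miR-223, miR-142-3p, miR-142-5p and miR-16, miRNAs that blood cells of the myeloid lineage are known to hold at high levels. It had a signal for 2 of the 6 myeloid and pan-blood miRNAs examined, miR-21 and miR-146a, whereas each of the other 5 samples had a signal for all 6. For miR-223 the Ct was 21.95 and 16.96 in the Ly6Chigh samples of mice 2 and 3 and 18.97, 18.97 and 18.95 in the Ly6Clow samples of mice 1, 2 and 3. All members of card A are listed at well 63 or later. In the later wells of that card, after the first 48, the Spearman correlation of this sample with the others ran from −0.15 to −0.05 over 95 tested assays, and the other samples correlated with each other at up to 0.94. Low correlations also occurred on card B, between samples other than this one. There, over 74 tested assays, the lowest correlation with another sample was −0.195 for the Ly6Chigh samples of mice 2 and 3. The highest of each sample on card B ran from 0.794 to 0.901. Because of the values on card A, the main counts of members with a signal below are also given without the Ly6Chigh sample of mouse 1.

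A second group of wells, on card B, bears on 3 members. When the wells of a card are laid out 24 to a row, as on a 384-well plate, the 4 wells of the U6 control form a square of neighbours, and they gave nearly the same Ct on both cards. Among all 690 squares of 4 neighbouring wells on both cards, 5 others had a signal and differed by at most 5 cycles in every sample (a limit chosen after the values were seen). All 5 were on card B, and on card A there were 0. They covered 16 wells with different assay names, among them miR-370, miR-433-5p and miR-337 of the locus. The square of miR-370, miR-433-5p, miR-690 and miR-691 differed by at most 1.03 cycles in any sample. In the square of hsa-miR-935, hsa-miR-99b#, hsa-miR-136 and hsa-miR-299-5p, the last differed from the snoRNA135 control of card A by at most 0.119 cycles in any sample, and the others by at most 2.06, 1.84 and 1.32. In the square of miR-337, miR-345, miR-718 and miR-721, miR-718 differed from the U87 control of card A by at most 0.0819 cycles, and miR-337, miR-345 and miR-721 by at most 4.97, 0.934 and 3.96. The closest matches rest on few detected values. Outside mouse 2, miR-718 and U87 were undetected, and hsa-miR-299-5p and snoRNA135 had a Ct only in Ly6Clow of mouse 1 (35.88 and 36.00). Most detected Ct values also lay near whole cycles, so a very small gap mostly means the same whole cycle. The assays of miR-370 and miR-433-5p differed from the snoRNA202 control of card A by at most 2.04 and 3.05 cycles. Why neighbouring wells of different assays read alike was not tested, and the main counts of signals are also given without these wells.

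Most Dlk1-Dio3 miRNAs gave no signal in either monocyte subset. Of the 58 assays, 20 (34.5%) had a signal in at least 1 sample, against 393 (52.4%) of all 750 miRNA assays. In at least 3 samples, 6 of the 58 (10.3%) had a signal, against 201 (26.8%) of the 750, and at a Ct under 32 it was 3 (5.17%) against 154 (20.5%). In all 6 samples, only miR-541 of the locus had a signal, 1.72% of the members, whereas 59 of all assays (7.87%) did. Without the Ly6Chigh sample of mouse 1, members with a signal fell to 12 of 58 (20.7%), and those of all assays to 346 of 750 (46.1%). In at least 3 of the 5 samples left it was 5 of 58 (8.62%) and 184 of 750 (24.5%), since miR-323-3p reached 3 samples only through its Ct of 34.97 in that sample. Without the 16 like wells of card B, 17 of 55 members (30.9%) had a signal, beside 51.4% of the 735 miRNA assays left, and 4 of 55 (7.27%) had one in at least 3 samples, beside 26%. In these bulk samples, fewer cells of a type and less RNA per cell cannot be told apart.

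**Figure D1:**
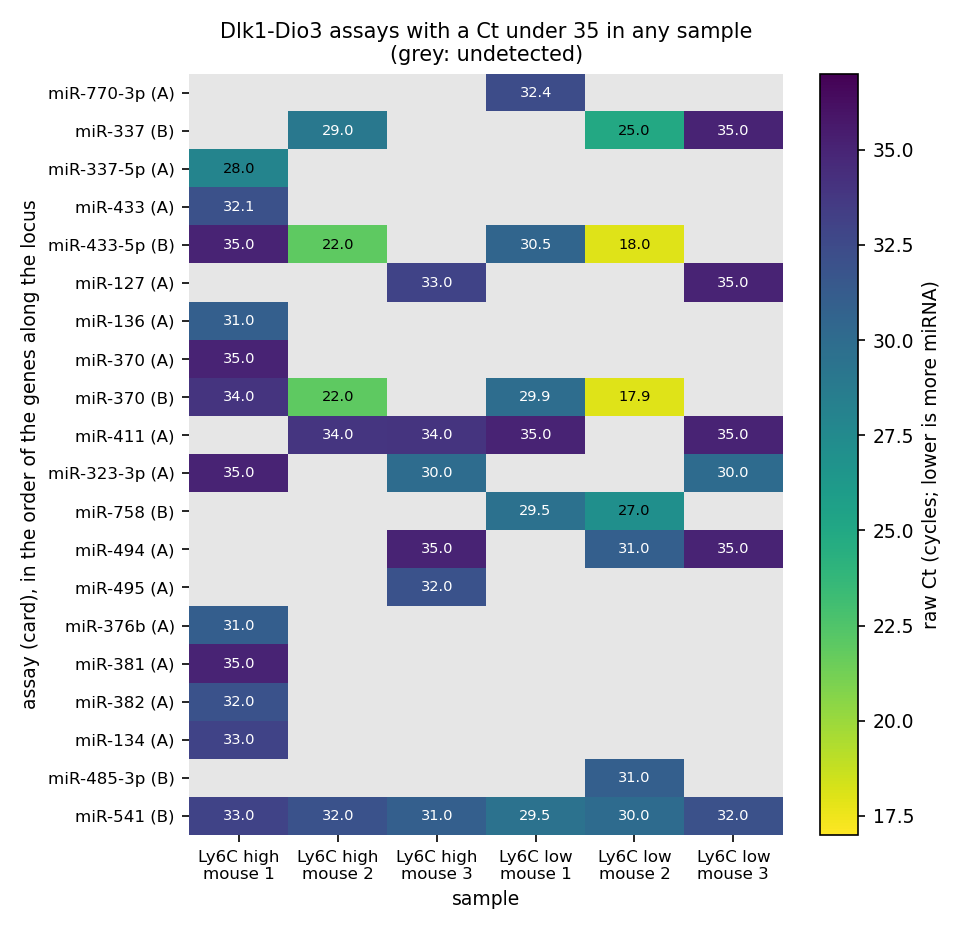
Raw Ct, in cycles, of the 20 Dlk1-Dio3 assays with a signal (Ct under 35) in any sample, with the 6 samples as columns and the assays as rows in the order of their genes along the locus (card in brackets). Grey marks undetected reactions. Only miR-541 has a colour in all 6 columns, and 8 assays of card A have one in the first column alone.

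The Ly6Chigh sample of mouse 1 gave signals for 12 members, and the other 5 samples for 5 to 7. This contrast did not hold at a Ct under 32, where it was 4, 4 and 3 members in the Ly6Chigh samples of mice 1, 2 and 3 and 4, 7 and 1 in the Ly6Clow samples (6.9%, 6.9% and 5.17%, and 6.9%, 12.1% and 1.72%). Of all miRNA assays, 15.9%, 21.7% and 18.3% were under 32 in the Ly6Chigh samples and 21.7%, 33.2% and 14.5% in the Ly6Clow samples. By sample, at a Ct under 35, it was 12, 5 and 6 of 58 in the Ly6Chigh samples of mice 1, 2 and 3 (20.7%, 8.62% and 10.3%) and 5, 7 and 5 in the Ly6Clow samples (8.62%, 12.1% and 8.62%). Of all miRNA assays, 22.5%, 28.8% and 23.6% had a signal in the Ly6Chigh samples and 27.6%, 39.2% and 19.5% in the Ly6Clow samples, so the share among members was the lower one in each of the 6 samples. The cards differed. On card A, 9, 1 and 5 of 44 members had a signal in the Ly6Chigh samples and 1, 1 and 4 in the Ly6Clow samples. Among all card A assays it was 29.1%, 29.9% and 34.4% in the Ly6Chigh samples and 33.9%, 38.9% and 30.7% in the Ly6Clow samples. The share among card A members was thus the lower one in every sample. On card B, 3, 4 and 1 of 14 members had a signal in the Ly6Chigh samples and 4, 6 and 1 in the Ly6Clow samples. There the share among members was above that of all card B assays in both samples of mice 1 and 2 (21.4%, 28.6%, 28.6% and 42.9% against 16%, 27.7%, 21.3% and 39.5% in Ly6Chigh of mice 1 and 2 and Ly6Clow of mice 1 and 2). Without the like wells this turned in all 4, with 1, 1, 2 and 3 of 11 members (9.09%, 9.09%, 18.2% and 27.3%) against 15.0%, 24.7%, 19.4% and 36.9% of all card B assays. It also turned, the other way, in Ly6Clow monocytes of mouse 3, from 7.14% of members against 8.27% of all card B assays to 9.09% against 8.61%, which is 1 member, miR-541, with and without these wells.

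**Figure D2:**
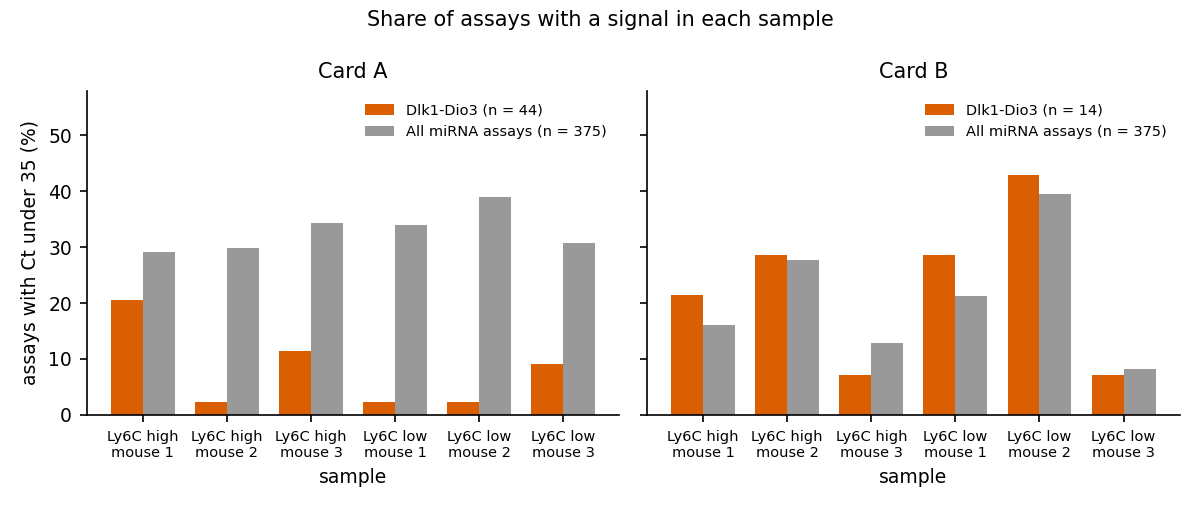
Share of assays with a Ct under 35, in percent, in each of the 6 samples, on card A (left) and card B (right). Orange bars stand for the Dlk1-Dio3 assays, 44 and 14 on these cards, and grey bars for all 375 miRNA assays of the card. The orange bars are the lower ones in every sample of card A and in mouse 3 on card B.

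Along the locus, signals were scattered. In the group from Mir770 to Mir136, 7 of 17 assays had a signal, and 4 did without the Ly6Chigh sample of mouse 1. Both assays of miR-370 did, 1 of them without that sample. In the run from Mir379 to Mir410, it was 11 of 39 assays, and 7 without that sample. Without the like wells, the counts were 5 of 15, 1 of 1 and 11 of 39. Among all miRNA assays, the share with a signal in at least 1 sample was 52.4%. It was 46.1% without the Ly6Chigh sample of mouse 1 and 51.4% without the like wells.

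For comparison, the other large imprinted miRNA cluster of the mouse lies within Sfmbt2. Of its 29 assays, 10 (34.5%, against 52.4% of all assays) had a signal in at least 1 sample. In at least 3 samples it was 1 of 29 (3.45%, against 26.8%). Without the Ly6Chigh sample of mouse 1, 9 of 29 (31.0%, against 46.1%) had a signal in at least 1 sample. The cards differed here too, with 7 of 9 assays (77.8%) on card A, against 59.2% of all card A assays, and 3 of 20 (15.0%) on card B, against 45.6%. Its signals by sample were 3, 6 and 0 in the Ly6Chigh samples and 1, 9 and 0 in the Ly6Clow samples. They were most numerous in mouse 2, whose samples also had the most signals among all miRNA assays within their subset.

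miR-541 was the only member present in all samples. Its Ct was 32.97, 31.98 and 30.97 in the Ly6Chigh samples of mice 1, 2 and 3 and 29.48, 29.98 and 32.03 in the Ly6Clow samples. Expression was then taken as −ΔCt, the Ct turned in sign after the authors' subtraction of the U6 small nuclear RNA of the same card, which is a log2 level relative to U6. On this scale miR-541 was at −9.22, −7.12 and −9.81 in Ly6Chigh and −8.09, −9.96 and −9.32 in Ly6Clow monocytes. The subsets overlapped, with the highest value in the Ly6Chigh and the lowest in the Ly6Clow sample of mouse 2. The means were −8.72 ± 1.42 (SD, n = 3) and −9.12 ± 0.95 (SD, n = 3). Its values spanned 2.84 log2 units over the 6 samples, where the median span of the 59 assays with a signal throughout was 3.71.

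miR-370 and miR-433-5p on card B had the lowest Ct of all members, but only in mouse 2. The Ct of miR-370 was 33.96, 21.97 and 40 in the Ly6Chigh samples of mice 1, 2 and 3 and 29.87, 17.95 and 40 in the Ly6Clow samples. That of miR-433-5p was 34.97, 21.96 and 40 in the Ly6Chigh samples and 30.45, 17.98 and 40 in the Ly6Clow samples. Both assays were thus early in both samples of mouse 2, later in mouse 1 and undetected in mouse 3, whichever the subset. For miR-370, the mean −ΔCt of the samples of each mouse was −9.34, 2.48 and −18.07 in mice 1, 2 and 3, a span of at least 20.55 log2 units between mice with the undetected mouse 3 at the floor of 40 cycles, while the difference of Ly6Chigh minus Ly6Clow within each mouse was −1.73, 0.82 and −1.56. In mouse 3 the latter is only the U6 difference, because both reactions were undetected.

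These are the assays of the like wells described above. miR-370 and miR-433-5p stood in wells 57 and 58, and 8 other wells of the array (miR-433-5p counted) came within 4 cycles of miR-370 in every sample, a rule chosen after the values were seen. Of these 8, 7 were on card B in wells 58 to 60 and 81 to 84, namely miR-433-5p, rno-miR-513, hsa-miR-200b, miR-690, miR-691, snoRNA135 and miR-692, and 1 was the control snoRNA202 of card A, with a Ct of 31.92, 22.97 and 40 in the Ly6Chigh samples and 30.96, 18.99 and 40 in the Ly6Clow samples. The miR-370 assay of card A had a signal in the Ly6Chigh sample of mouse 1 alone, at 34.97, and was undetected in the other 5, mouse 2 included. Likewise, miR-433 on card A had a signal only there, at 32.07.

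**Figure D3:**
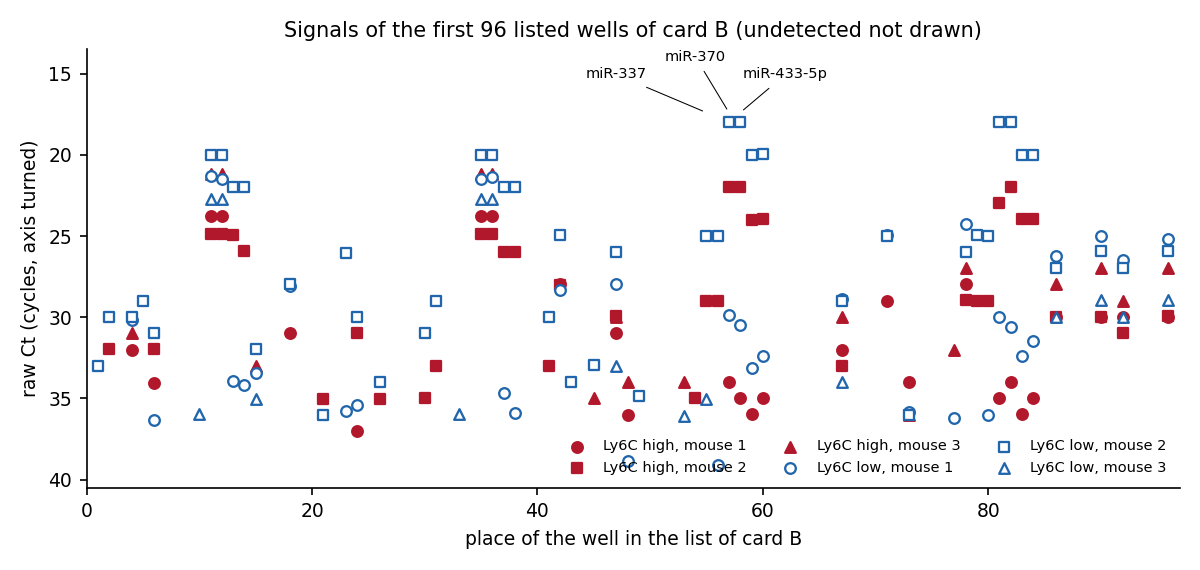
Raw Ct, in cycles on an axis turned so that more template is higher, of the first 96 listed wells of card B against their place in the list. Symbols stand for the 3 mice and colours and fill for the subsets, and undetected reactions are not drawn. In every sample, wells 58 (miR-433-5p), 59, 60 and 81 to 84 came within 4 cycles of miR-370 (well 57). Both samples of mouse 2 (squares) are the highest in all of these wells.

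Beside miR-541, the members seen in both samples of mouse 3 were miR-323-3p, miR-411, miR-494 and miR-127, all on card A. miR-323-3p had a Ct of 34.97, 40 and 29.97 in the Ly6Chigh samples and 40, 40 and 29.99 in the Ly6Clow samples. Its earliest signals were thus the pair of mouse 3, nearly equal in both subsets. miR-411, from the start of the Mir379 to Mir410 run, had a Ct of 40, 33.95 and 33.96 in the Ly6Chigh samples and 35.01, 40 and 34.97 in the Ly6Clow samples, all near the limit. miR-494 had a Ct of 40, 40 and 34.99 in the Ly6Chigh samples and 40, 30.97 and 34.995 in the Ly6Clow samples, so that its clearest signal was that of Ly6Clow monocytes of mouse 2. miR-127, antisense to Rtl1, had a signal only in mouse 3, at 32.99 in Ly6Chigh and 34.99 in Ly6Clow monocytes. On card A, 4 of the 44 members had a signal in both samples of mouse 3, and 0 did in both samples of mouse 1 or of mouse 2. Of all card A assays, 13.6%, 29.3% and 29.9% had a signal in both samples of mice 1, 2 and 3.

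The mesenchymal miRNAs miR-145 and miR-199a-3p were also earliest in mouse 3, whereas miR-10b was not. Among the 6 assays of the 5 mesenchymal miRNAs examined (miR-199a-3p, miR-214, miR-143, miR-145 and miR-10b, with 2 assays), 3 had a signal in the Ly6Chigh and 4 in the Ly6Clow sample of mouse 3, against 1 and 1 in mouse 1 and 1 and 3 in mouse 2. miR-145, the most often detected of them, had a Ct of 40, 34.98 and 29.98 in the Ly6Chigh samples and 36.00, 31.95 and 29.97 in the Ly6Clow samples, and miR-199a-3p was at 40, 40 and 29.99 and at 32.97, 40 and 31.00. Both were thus at or near 30 cycles in both samples of mouse 3, as miR-323-3p was. The earliest signals of the list were those of miR-10b, at 21.97 on card A in the Ly6Chigh sample of mouse 1 alone and at 26.03 on card B in the Ly6Clow sample of mouse 2, and both its assays were undetected in mouse 3. The placenta and germ line relatives on the list, miR-290-5p, miR-291a-3p and miR-295, had a signal in 0 of the 6 samples. Relatives on card B outside the list did not all stay silent. There, miR-291-5p was at 30.96, 29.95 and 29.96 in the Ly6Chigh samples and at 27.94, 25.95 and 32.98 in the Ly6Clow samples. miR-295# had a signal in both samples of mouse 2 (32.97 and 29.97). miR-292-3p had one in Ly6Chigh of mouse 3 (33.98) and miR-292-5p in Ly6Clow of mouse 2 (34.84), whereas miR-291-3p was undetected. Of 5 neuronal assays, 2, 2 and 3 had a signal in the Ly6Chigh samples of mice 1, 2 and 3 and 2, 3 and 2 in the Ly6Clow samples, and of 5 epithelial assays it was 2, 1 and 3 and 4, 3 and 3. Of the 2 muscle assays, 1 had a signal, in the Ly6Chigh sample of mouse 3 alone, and the liver miRNA miR-122 had one in both samples of mouse 3, at 32 and 33.01, and an earlier one, at 28.98, in the Ly6Chigh sample of mouse 1. Of the 3 lymphocyte assays (miR-150, miR-342-3p and miR-181a), 2 had a signal in the Ly6Chigh sample of mouse 1 and 3 in each other sample. Of the 3 erythroid and platelet assays (miR-451, miR-486 and miR-126-3p), it was 0 in that sample and 2 in each other sample. The endothelial miR-126-5p had a signal only in the Ly6Clow sample of mouse 2. The part of other cells in the Dlk1-Dio3 signals was not tested.

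A signal in exactly 2 samples was also given by miR-337 and miR-758 on card B. miR-337 had a Ct of 28.97 in Ly6Chigh and 24.97 in Ly6Clow monocytes of mouse 2, in a well of the like squares, and was at 35.03 in the Ly6Clow sample of mouse 3. miR-758 is a miRNA known to target the cholesterol exporter Abca1. Its mouse assay was seen only in Ly6Clow monocytes, at 29.50 in mouse 1 and 27.03 in mouse 2. It was undetected in all 3 Ly6Chigh samples and in the Ly6Clow sample of mouse 3. With signals in 2 samples this assay was below the limit for testing. The rat assay rno-miR-758 on card A went the other way. It was undetected in all 3 Ly6Clow samples, and its only signal was at 27.98 in the Ly6Chigh sample of mouse 1.

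Another 11 members (19.0%, against 14.8% of all assays) had a signal in exactly 1 sample, and 8 of these signals came from card A of the Ly6Chigh sample of mouse 1. These 8 were 18.2% of the card A members, where 45 of all 375 card A assays (12%) had a signal in that sample alone. They were miR-337-5p at 27.95, miR-136 at 30.97, miR-376b at 31.00, miR-382 at 31.98, miR-433 at 32.07, miR-134 at 32.97, miR-370 at 34.97 and miR-381 at 34.98. miR-134 is known from the dendritic spines of neurons, and miR-376b belongs to a family whose transcripts undergo RNA editing. None of these 8 was seen in the Ly6Clow sample of the same mouse or in any other sample, and they stand on the card that lacked miR-223 and miR-142-3p. The other 3 were miR-495 at 31.99 in Ly6Chigh monocytes of mouse 3, miR-770-3p at 32.38 in Ly6Clow monocytes of mouse 1 and miR-485-3p on card B at 30.97 in Ly6Clow monocytes of mouse 2.

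The remaining 38 members (65.5%, against 47.6% of all assays) had no Ct under 35 in any sample. From the Mir770 to Mir136 group these 10 were miR-770-5p, miR-673, miR-673-3p, miR-337-3p, miR-540-3p, miR-540-5p, miR-665, miR-431, miR-434-3p and miR-434-5p. From the Mir379 to Mir410 run these 28 were miR-379, miR-299, miR-380-3p, miR-380-5p, miR-329, miR-494 on card B, both assays each of miR-543 and miR-487b, miR-679, miR-667, miR-376c, miR-654-3p, miR-654-5p, miR-376a, miR-300, miR-539, miR-544, miR-668, miR-154, miR-496, miR-377, miR-409-3p, miR-409-5p, miR-369-3p, miR-369-5p and miR-410. Of these 38, miR-434-3p, miR-654-5p, miR-376a, miR-487b on card A, miR-539 and miR-409-3p had a later Ct in 1 or 2 samples, between 35.03 and 36.04, and the others were undetected throughout.

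Members with an assay on each card seldom gave a signal on both. miR-370, miR-487b, miR-494 and miR-543 are listed under 1 name on both cards, and of the 24 pairs of reactions 4 gave a signal on the first card, 4 on the second and 1 on both. On cards A and B, miR-494 had 3 and 0 signals and miR-370 had 1 and 4. All 4 signals on card B thus came from the like well of miR-370. The pair with a signal on both cards was that of miR-370 in the Ly6Chigh sample of mouse 1. Over all 13 miRNA names listed on both cards, 14 of 78 reactions gave one on the first card, 11 on the second and 3 on both.

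No Dlk1-Dio3 assay passed the test for a difference between Ly6Chigh and Ly6Clow monocytes. The question of this comparison was which miRNAs set the subsets apart. limma was fitted to −ΔCt of all 201 assays with a signal in at least 3 samples, and at a Benjamini-Hochberg adjusted p of 0.05 or less 0 of the 6 members and 0 of the 201 assays (0%) were called. At an unadjusted limma p under 0.05 there were 0 of the 6 members and 2 of the 201 assays (0.995%). In 0 of the 6 did all Ly6Chigh values lie on 1 side of all Ly6Clow values, where among all tested assays 2.99% had all Ly6Chigh values above and 2.49% had all below. Of the 6, 3 had the higher mean in Ly6Chigh and 3 in Ly6Clow monocytes, and their median difference of Ly6Chigh minus Ly6Clow was −0.21 log2 units, beside −0.45 over all 201 assays. Without the like wells, 3 of the 4 tested members had the higher mean in Ly6Chigh and 1 in Ly6Clow monocytes, and the median turned to 1.48, beside −0.38 over all tested assays. Without the Ly6Chigh sample of mouse 1, both medians of the main fit turned, to 0.39 for the 6 members and 0.63 over all tested assays.

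In the main fit, which has no mouse block, no difference was larger than its standard error. For miR-541 it was 0.40 (standard error 1.56, 95% confidence interval −3.42 to 4.22). For miR-411 it was 2.56 (standard error 2.76, interval −4.21 to 9.32). For miR-323-3p it was 3.55 (standard error 3.75, interval −5.65 to 12.75). These intervals reach far to both sides of 0, so that even large differences in either direction were not detectable with these samples. For miR-494 the difference was −1.14 (standard error 2.87, interval −8.18 to 5.91). For miR-370 and miR-433-5p it was −0.83 and −0.96 (standard errors 7.05 and 7.08), with intervals from −18.11 to 16.46 and from −18.33 to 16.41. This fit has no mouse block, so the span between mice enters these intervals. With the block, the limma p moved from 0.911 to 0.557 for miR-370 and from 0.897 to 0.509 for miR-433-5p (adjusted p 0.949 for both). For miR-323-3p it moved from 0.381 to 0.182 and for miR-411 from 0.390 to 0.430 (adjusted p 0.949 for both). For miR-494 the limma p was then 0.602 and for miR-541 0.796 (adjusted p 0.953 for both). Without the block, the limma adjusted p was 0.985 for all 6. In 2-sided exact permutation tests, which left the pairing by mouse out, p was 0.5 for miR-323-3p and miR-411, 0.6 for miR-541 and 0.8 for the other 3. Here 3 samples against 3 allow 0.1 at the lowest. For every tested member but miR-541, values at the floor of 40 cycles enter the difference.

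**Figure D4:**
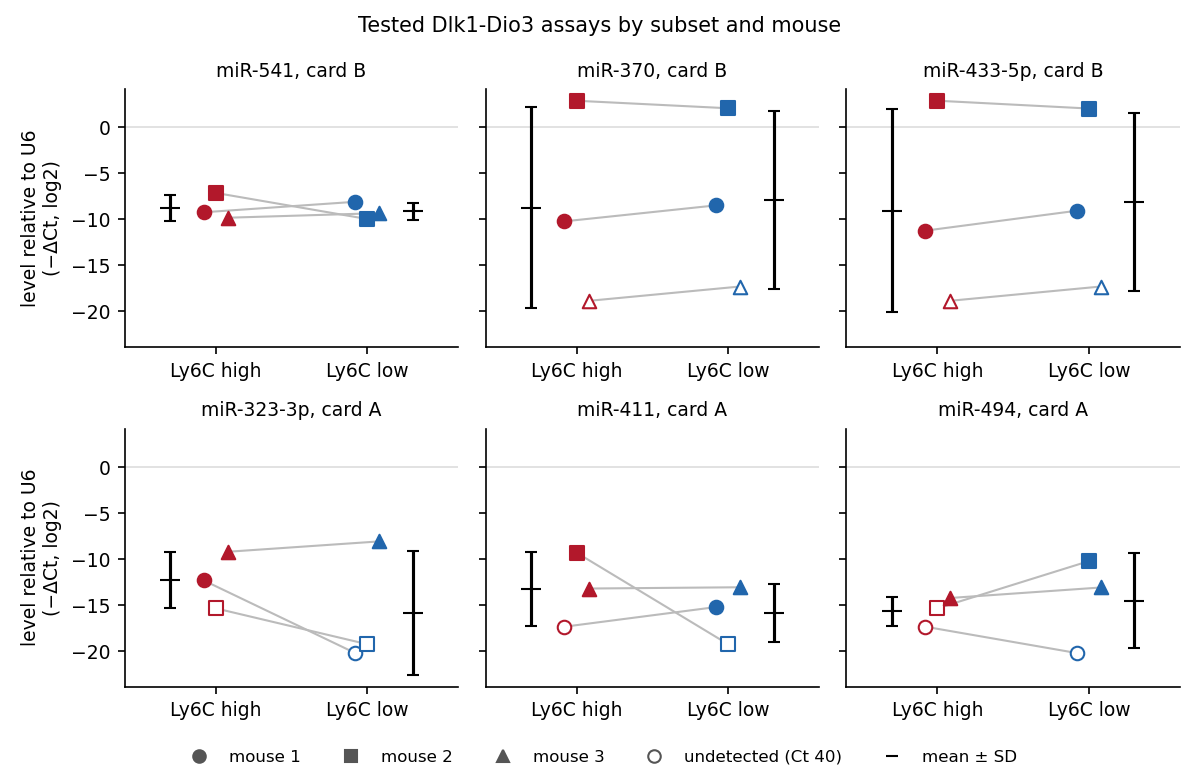
Level relative to U6 (−ΔCt, log2 scale) of the 6 tested Dlk1-Dio3 assays in Ly6Chigh (red) and Ly6Clow (blue) monocytes, with symbols for the 3 mice, grey lines that join the samples of 1 mouse and open symbols for undetected reactions. Bars give the mean ± SD of 3 samples. miR-370 and miR-433-5p are ordered by mouse, mouse 2 at the top and mouse 3 at the bottom in both subsets, and miR-541 lies within 2.84 log2 units throughout.

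The 23 further assays of these miRNA numbers, for the opposite strand or under a rat or human name, had a signal in at least 1 sample for 14 (60.9%, against 52.4% of all assays) and in at least 3 for 5 (21.7%, against 26.8%). Without the Ly6Chigh sample of mouse 1, the former was 12 (52.2%, against 46.1%), and without the like wells 12 of 21 (57.1%, against 51.4%) had a signal in at least 1 sample and 4 (19.0%, against 26%) in at least 3. Most of them, 17, were on card B, where 11 (64.7%) had a signal in at least 1 sample, against 45.6% of all card B assays. All 5 were on card B, their subsets overlapped, and none was called (limma adjusted p = 0.985 for each, 0 at an unadjusted p under 0.05). Of the 5, miR-376b#, hsa-miR-154# and rno-miR-409-3P had a higher and hsa-miR-136 and hsa-miR-485-5p a lower mean in Ly6Chigh monocytes. miR-376b# had a Ct of 26.95, 27.98 and 40 in the Ly6Chigh samples and 25.06, 25.96 and 40 in the Ly6Clow samples, and hsa-miR-154# was at 27.96, 29.96 and 40 and at 27.31, 28.99 and 40. Both were thus present in both subsets of mice 1 and 2 and undetected in mouse 3, whereas the mouse assays miR-376b and miR-154 on card A had a signal in 1 and 0 samples. hsa-miR-136 had a Ct of 40, 25.96 and 40 in the Ly6Chigh samples and 34.68, 21.99 and 40 in the Ly6Clow samples, in a well of the like squares, beside the snoRNA135 control of card A at 40, 25.96 and 40 and at 36.00, 21.98 and 40. The mouse miR-136 assay of card A was undetected in all of these samples but the Ly6Chigh sample of mouse 1.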

How the data were processed

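miRNAs were measured by TaqMan low-density arrays in Ly6Chigh and Ly6Clow monocytes of 3 mice. The deposited raw Ct is a log2 measure that falls as the template rises. In another deposited table the authors had subtracted the U6 Ct of that sample's card, and these ΔCt values are in log2 units too. The last table holds the authors' own ratios between the subsets and was not used. The software and fluorescence threshold behind the Ct values are not given in the sources used here. Subset and mouse were taken from the labels. From each card, the subtracted value was checked to be 1 constant per sample. Signals (Ct under 35) numbered 169, 216 and 177 among the miRNA assays of the Ly6Chigh samples of mice 1, 2 and 3 and 207, 294 and 146 in the Ly6Clow samples. By sample and card, 83.0% to 96.4% of detected assays had a Ct at most 0.05 cycles off a whole number, except for 12.1% on card B in the Ly6Clow sample of mouse 1. The number of arrays limits the precision.

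The 18 control wells were left out, and 201 of 750 miRNA assays, those with a signal in 3 or more of the 6 samples, were tested on −ΔCt with limma 3.58.1 (lmFit, eBayes) in R 4.3.3, Benjamini-Hochberg adjustment over all of them and a threshold of 0.05. The steps were tested on simulated data. Undetected reactions kept the listed Ct of 40. Exact permutation tests were made with scipy 1.17.1, and tables and figures with Python 3.11.15, pandas 2.3.3, numpy 2.4.6 and matplotlib 3.10.9. The members, the marker miRNAs and the Sfmbt2 list were chosen with earlier results of these data known. Members with a Ct under 35 in at least 3 samples are given in every sample, those in 1 or 2 samples with their Ct, and the others by name. The alternatives were other normalizations, filters and floors, the mouse as a block, and each sample left out in turn. Chosen after the data were seen were the counts without single samples or without card A of the Ly6Chigh sample of mouse 1, and all values without the like wells of card B.

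The labels pair the samples, since each mouse number occurs once in each subset. Deviations from the subset means correlated within mice 1, 2 and 3 at 0.32, 0.62 and 0.72 over the 201 assays, on card A at −0.09, 0.41 and 0.41 and on card B at 0.79, 0.76 and 0.76. Genes were named, ordered and given sequences from the RefSeq annotation of GRCm38.p6. Coordinates of the genes are left out.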

Additional observations from a re-analysis of the deposited data

Results flagged for a closer look

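The plant miRNA ath-miR159a is on both cards as a negative control, since mouse cells do not make it. It was undetected in 11 of 12 reactions, and on card B it had a Ct of 33.97 in Ly6Clow monocytes of mouse 2, a signal in a well outside the comparisons. That sample also had the most Dlk1-Dio3 signals of card B, 6 of 14 (42.9%), but also the most among all card B assays (39.5%), and 3 of the 6 are like wells. miR-485-3p, at 30.97, was seen in it alone. The part of unspecific amplification in these signals was not tested.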

How the results depend on the processing

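No member passed an adjusted p of 0.05 under any of the 17 alternative fits, and the lowest adjusted p of a member was 0.541. With the mouse as a replicate block the count was 0 as well, and the block changed no other call. At an unadjusted p under 0.05, leaving out 1 sample gave 0 to 1 members, the 1 being miR-323-3p without the Ly6Clow sample of mouse 3 (difference 7.44, limma p across all tested assays 0.031, with no exact test). Of 92 values of single members under alternatives, 81 kept their direction and 11 reversed, and none was called. miR-541 was at −1.48 without normalization, miR-323-3p at −2.68 with undetected reactions as missing, and miR-494 at 0.53 with a floor of 35 cycles. With 1 sample left out, the range was −0.40 to 0.95 for miR-541, −6.63 to 4.24 for miR-370, −6.94 to 4.11 for miR-433-5p and −3.99 to 1.00 for miR-494, and, with no change of direction, 1.37 to 7.44 for miR-323-3p and 0.57 to 4.59 for miR-411. The median difference of the members was −2.09 without normalization, 1.87 over all 58 without a filter, and −0.84 to 2.26 with 1 sample left out. Without a filter most values are at the floor, so that this median is the U6 difference of card A. Members with a signal numbered 13 at a Ct under 32, 12 without card A of the Ly6Chigh sample of mouse 1, and 12 to 20 with 1 sample left out, the lowest without that same sample. For the other changes the cause was not tested. Undetected reactions give only a lower bound on the Ct, and 3 samples per subset limit every difference.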

Other observations

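Outside the locus, 3 miRNAs examined under a human name on card B also read unlike the mouse assay of card A. hsa-miR-223 and hsa-miR-143 were undetected in all 6 samples, whereas miR-223 had a signal in 5 and miR-143 in 3. hsa-miR-214 had signals in both samples of mouse 2, at 32.97 and 28.98, whereas miR-214 had 1, at 30.98, in the Ly6Clow sample of mouse 3.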
